A study of Mus musculus with 16 samples.

Results

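The comparison set RNA bound to tagged ribosomes of prepronociceptin (Pnoc) neurons against input RNA of the hypothalamus, both from mice fed a high-fat diet for 3 days. Its members were all tests of the authors' deposited table for that diet with an FPKM (fragments scaled by transcript length and library depth) above 0 in both groups and of at least 1 in the higher group. They numbered 5966, of 6540 tests listed for the high-fat diet and 7673 listed for either diet. All mice carried the PNOC-L10a-EGFP transgene, in which a ribosomal protein fused to green fluorescent protein marks the ribosomes of the cells that make it, on the C57BL/6N strain, at 10 to 12 weeks of age. The high-fat group held 4 libraries of the immunoprecipitate (IP, labelled IP-GFP) and 4 input libraries, and mice on control (chow) diet for 3 days gave another 4 and 4. Neither the promoter elements of the transgene nor whether a library was 1 animal or a pool is given in the labels.

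Translating ribosome affinity purification pulls out polysomes by the tagged large-subunit protein L10a. The immunoprecipitate is thus meant to be enriched for messages that the tagged cells were translating. The input is the RNA of all cells in the dissected block. The immunoprecipitate also held RNAs that tagged ribosomes do not translate, such as mitochondrially encoded mt-Co1 at 182 FPKM and nuclear Malat1 at 86.7 FPKM. A level in it is therefore not by itself a measure of translation in tagged cells. Pnoc encodes the precursor of nociceptin, an opioid-family peptide that acts through the receptor encoded by Oprl1. Pnoc neurons of the arcuate nucleus are known as GABAergic cells that respond to fat-rich food and promote feeding. A gene higher in the immunoprecipitate than in input is one whose RNA takes a larger share of the immunoprecipitate than of the input. In such bulk samples, fewer cells of a type and less RNA per cell cannot be told apart.

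The deposited values were 1 FPKM per group, so they are the authors' values and carry no spread over libraries. Sequencing depth is unknown, and higher and lower below are the calls of the authors' deposited table at its q-value threshold of 0.05. Its p- and q-values implied about 24230 tests per diet, of which 27% were listed. The input carried hypothalamic peptides such as Pmch at 426 FPKM and Hcrt at 120 FPKM. It also carried pituitary hormones, with Prl at 243 and Gh at 204 FPKM, and genes typical of thalamus and striatum that are described below. The members called in each direction were 3554 higher (59.6%) and 2412 lower (40.4%) in the immunoprecipitate than in input. The counts of every gene list below stand against these shares. By input level, the share higher ran from 32.5% in the lowest of 5 equal classes to 79.8% in the highest, so lists of abundant genes have a higher background.

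The higher and the lower members had different shapes. Higher members were abundant messages with modest folds: their median was 28 FPKM in IP and 18.8 FPKM in input, a median log2 fold of 0.59, and 181 reached 2-fold (3.03% of members). Lower members were scarcer and fell further: their median was 2.35 FPKM in IP and 6.11 FPKM in input, a median log2 fold of -1.19, and 1394 reached 2-fold (23.4% of members). At 4-fold there were 8 higher and 709 lower members. The median over all members was 0.42 on the log2 scale, and 571 higher members lay under it, so a fold between 0 and 0.42 is higher in the immunoprecipitate but below the typical listed member. The smallest folds called were 0.29 for Rgmb and -0.30 for Egln1, and q-values in the authors' deposited table ended at 0.0499. Just inside the FPKM minimum lay Foxo4, at 0.357 FPKM in IP and 1.00 in input, and just outside it Grap, at 0.198 FPKM in IP and 0.997 in input. Of the 574 tests left out, 503 were lower and 55 higher tests below that minimum, and 16 had 1 group listed at 0.

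**Figure D1:**
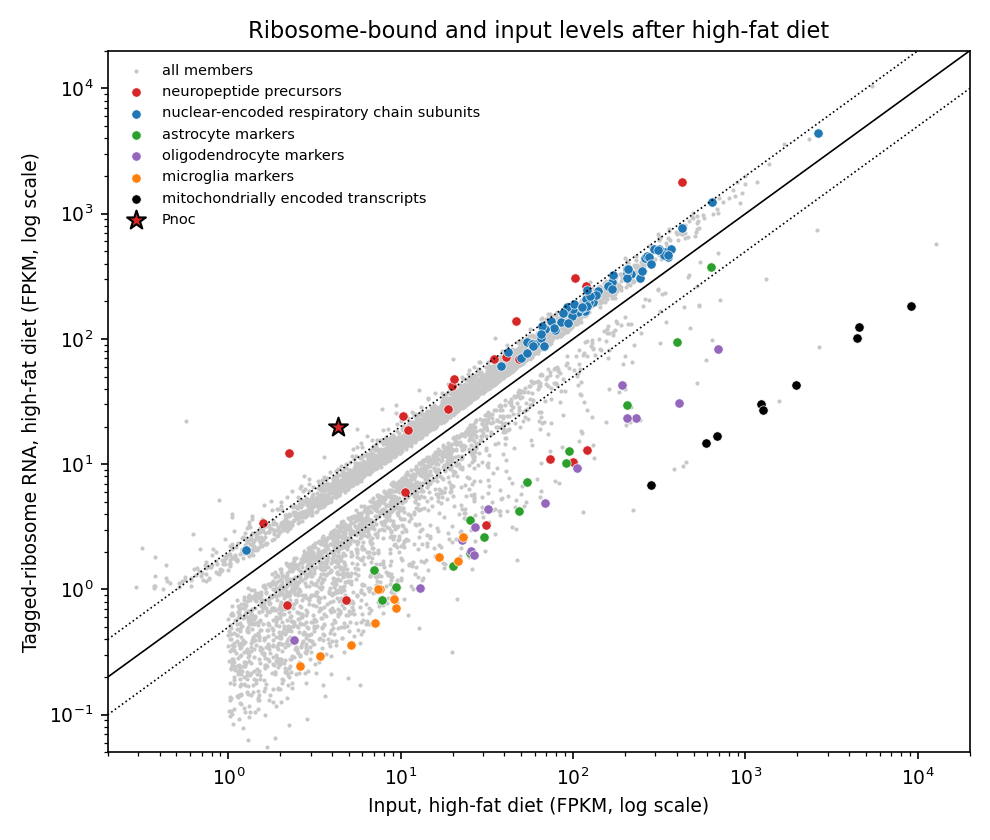
Immunoprecipitate FPKM (y axis) against input FPKM (x axis) for the 5966 members after high-fat diet, both on log scales, with the solid line at equal levels and dotted lines at 2-fold. The higher members form a tight band just above the line, the gap around the line is left by tests that were not listed, Pnoc and several peptide precursors rise above it, and glial and mitochondrially encoded genes lie far below.

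The targeted gene was among the members with the highest folds. Pnoc stood at 19.8 FPKM in IP and 4.35 FPKM in input, a log2 fold of 2.18 with a standard error of 0.32 implied by the statistic of the authors' deposited table (q = 0.000379). It had the sixth highest fold of all members, some of which had under 1 FPKM in input. Gnrh1 and Pmch, described below as genes of other cell groups, had folds of 2.44 and 2.08. Pnoc's fold alone therefore does not show how specific the purification was. Pnoc (ENSMUSG00000045731) spans bases 65400673 to 65425472 of chromosome 14 in GRCm38, on the minus strand. In chow-fed mice it was at 19.9 FPKM in IP and 4.62 FPKM in input. Rpl10a, whose product carries the tag, was not listed after high-fat diet, and a gene may be missing from the list because it was untested, did not reach the threshold or was left out.

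Only 8 members were at least 4-fold higher. The highest was a merged test of the antisense RNA Gm26691 and the microRNA gene Mir1895, at 22 FPKM in IP and 0.565 in input, where the 2 genes cannot be told apart. It was followed by Rnf225, in a test shared with a small nuclear RNA gene, at 2.14 FPKM in IP and 0.315 in input, by Mup6, a major urinary protein gene with near-identical copies that makes its level uncertain, and by Gnrh1, Gm19744, Pnoc, the secreted Wnt inhibitor Wif1 and Pmch. Of these 8, 3 encode neuropeptide precursors: Gnrh1, Pnoc and Pmch. All the others had under 1 FPKM in input, with Mup6 at 0.885, Wif1 at 0.627 and Gm19744 at 0.376. Those could pass the FPKM minimum only by being higher in the immunoprecipitate.

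Of 33 neuropeptide precursor genes other than Pnoc, 14 were higher and 7 lower, with a median log2 fold of 0.81. The share higher, 66.7% of those listed, was near the 59.6% of all members, and the folds ran from -3.26 to 2.44. Gnrh1, which encodes gonadotropin-releasing hormone, was at 12.3 FPKM in IP and 2.26 FPKM in input. Pmch, the melanin-concentrating hormone precursor of the lateral hypothalamus, was at 1806 FPKM in IP and 426 FPKM in input, a 4.24-fold difference at the highest level of any precursor. Both are genes of cell groups other than the arcuate nucleus, and their implied standard errors in the authors' deposited table were 0.60 and 0.25 on the log2 scale. Pmch's test covered 55.9 kb in the deposited coordinates, against 1.3 kb annotated for the gene (chromosome 10, 88091072 to 88092375), so neighbouring transcripts may have been counted in the same locus.

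Other precursors were about 2- to 3-fold higher. Tac2, the neurokinin B precursor, had 140 FPKM in IP and 46.8 in input. Sst, somatostatin, had 306 FPKM in IP and 102 in input. Gal, Trh, Cck, Grp, Ghrh and Cartpt, which encode galanin, thyrotropin-releasing hormone, cholecystokinin, gastrin-releasing peptide, growth hormone-releasing hormone and the CART peptide, had log2 folds between 1.01 and 1.25. Penk, Nts, Nucb2 and Tac1 were higher by 0.53 to 0.81.

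The 7 lower precursors were Oxt, Avp, Hcrt, Pomc, Npvf, Ucn3 and Pdyn. Oxytocin (Oxt) stood at 3.26 FPKM in IP and 31.3 in input, and vasopressin (Avp) at 10.4 FPKM in IP and 99.9 in input, each 10.4% of input. Hcrt, the orexin precursor, had 13.0 FPKM in IP and 120 in input, or 10.9% of input. These 3 peptides mark magnocellular and lateral hypothalamic neurons, and their shares of input were under the median of the astrocyte markers given below. Pomc, the melanocortin precursor of arcuate neurons and of pituitary cells, had 11.1 FPKM in IP and 73.1 in input. Pituitary Prl and Gh moved with it, at 9.33% and 10.1% of input, and the part of pituitary RNA in the Pomc value was not tested. Pdyn, the dynorphin precursor, had 5.98 FPKM in IP and 10.7 in input. Agrp and Npy, the markers of the arcuate neurons that drive feeding, were not listed in either diet.

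The windows upstream of the precursor with the highest level and of the 2 lowest by fold are shown because the results on precursors turn on these genes. They are the 250 bases before the RefSeq start site in GRCm38.p6, 5′ to 3′ on the gene's strand, with capitals for any match, on either strand, to TATAAA (the TATA box core), AGGTCA (a nuclear receptor half-site) or TGACGTCA (the full cyclic AMP response element).
Pmch, chr10:88090822-88091071, plus strand: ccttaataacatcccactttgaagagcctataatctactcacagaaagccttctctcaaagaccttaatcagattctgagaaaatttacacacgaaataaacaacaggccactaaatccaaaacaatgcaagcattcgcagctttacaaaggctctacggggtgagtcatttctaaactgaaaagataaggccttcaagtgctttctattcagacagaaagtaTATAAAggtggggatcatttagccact
Oxt, chr2:130575919-130576168, plus strand: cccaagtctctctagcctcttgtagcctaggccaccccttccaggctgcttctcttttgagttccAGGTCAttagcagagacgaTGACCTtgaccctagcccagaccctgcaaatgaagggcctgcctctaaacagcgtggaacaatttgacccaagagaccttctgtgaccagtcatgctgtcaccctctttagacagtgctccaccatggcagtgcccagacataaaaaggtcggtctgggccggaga
Avp, chr2:130582589-130582838, minus strand: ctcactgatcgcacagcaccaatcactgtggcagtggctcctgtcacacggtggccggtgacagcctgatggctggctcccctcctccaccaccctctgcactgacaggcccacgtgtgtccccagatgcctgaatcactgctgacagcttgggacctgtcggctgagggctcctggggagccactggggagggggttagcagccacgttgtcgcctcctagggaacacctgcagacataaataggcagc
Pmch carries TATAAA 27 bases before the start, Oxt carries AGGTCA 185 and, on the opposite strand, 166 bases before it, and Avp carries none of the 3 motifs in this window. Over 32851 RefSeq windows of 300 bases, 250 before and 50 after the start, TATAAA was in 13.6%, AGGTCA in 16.3% and TGACGTCA in 1.79%. Among higher and lower members, TATAAA was in 7.23% and 8.89% of windows, AGGTCA in 12.1% and 11.8%, and TGACGTCA in 3.69% and 2.77%. The precursors had 12 windows of 11 higher genes and 8 windows of 7 lower ones, and some higher precursors, Pnoc among them, had no window. TATAAA was in 2 of 12 windows of higher precursors and 3 of 8 of lower ones, AGGTCA in 3 of 12 and 2 of 8, and TGACGTCA in 2 of 12 and 0 of 8. These matches are descriptions of letters, and no binding was measured.

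**Figure D2:**
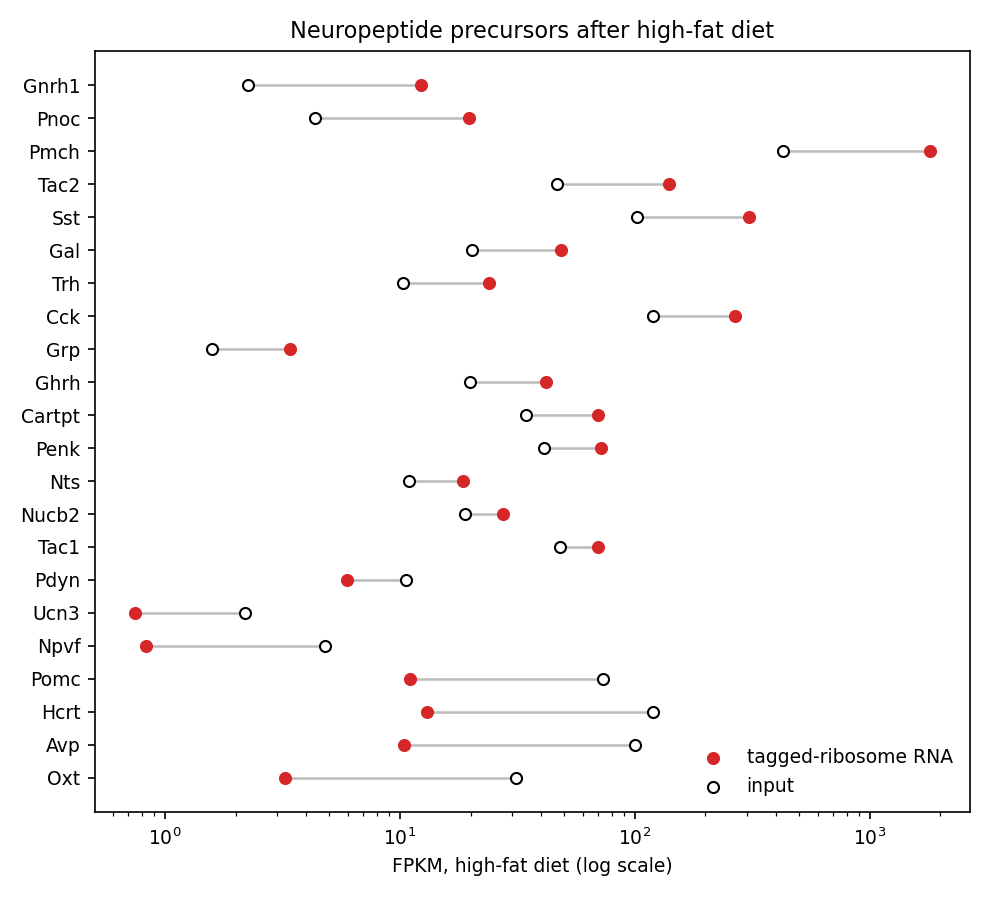
FPKM (log scale) of each listed peptide precursor after high-fat diet, in the immunoprecipitate (filled) and in input (open), ordered by fold. Gnrh1, Pnoc and Pmch lie furthest to the right of their input, and Pomc, Hcrt, Avp and Oxt furthest to the left.

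Genes that process and store peptides were mostly higher. Of 19, 12 were higher and 2 lower, or 85.7% higher of those listed against 59.6% of all members, with a median of 0.69. Vgf, a granin-like secretory protein, had 24.6 FPKM in IP and 10.7 in input. Chga, Scg5 and Chgb, all dense-core vesicle proteins, were higher by 0.88, 0.87 and 0.79 on the log2 scale. The prohormone convertase gene Pcsk2 was higher by 0.71. The carboxypeptidases Cpe and Cpd were the 2 lower genes, with Cpe at 249 FPKM in IP and 311 in input.

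GABAergic genes were nearly all higher. Of 12, 10 were higher and 1 lower, or 90.9% higher of those listed against 59.6% of all members, with a median of 0.85. The vesicular GABA transporter gene Slc32a1 had 49.5 FPKM in IP and 22.8 in input, and the synthetic enzymes Gad1 and Gad2 were the other core genes, with Gad1 at 164 FPKM in IP and 97.2 in input and Gad2 at 438 FPKM in IP and 298 in input. The forebrain interneuron factors Dlx6, Sp9, Dlx5 and Dlx1 were higher by 1.36, 1.21, 1.01 and 0.85. Of 10 glutamatergic genes, 3 were higher and 2 lower, or 60% higher of those listed, the share of all members being 59.6%. Slc17a6, the vesicular glutamate transporter of most hypothalamic excitatory neurons, had 83.0 FPKM in IP and 59.6 in input, and Slc17a7 and Tbr1 were higher too. Neurod6 and Nr5a1 were the 2 lower. Nr5a1, a factor of the ventromedial nucleus, had 0.259 FPKM in IP and 1.35 in input.

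Transcription factors and regional markers differed between regions. Of 23 hypothalamic factors, 10 were higher and 3 lower, or 76.9% higher of those listed against 59.6% of all members. Lef1, a nuclear partner of Wnt signalling, had 69.7 FPKM in IP and 20.1 in input. Bsx, a factor of arcuate and dorsomedial neurons, had 6.06 FPKM in IP and 2.35 in input. Zic1 had 56.6 FPKM in IP and 24.97 in input. Prox1, Six6 and Onecut2 were lower. Of 8 thalamic markers, 7 were higher and none lower, with the highest median of the lists plotted (1.15). Gbx2, a factor that patterns the thalamus, had 7.99 FPKM in IP and 2.74 in input. Prkcd, a protein kinase C, had 101 FPKM in IP and 35.5 in input. Tcf7l2, a Wnt-pathway factor, had 145 FPKM in IP and 65.2 in input. Lef1 belongs to both lists, and the part of thalamic RNA in these values was not tested. Of 10 striatal markers, 2 were higher, the peptide genes Penk and Tac1, and 5 lower. Ppp1r1b, the phosphatase inhibitor DARPP-32 of striatal projection neurons, had 4.97 FPKM in IP and 33.9 in input. Adora2a, an adenosine receptor, had 0.243 FPKM in IP and 1.22 in input. Of 12 monoamine and acetylcholine genes, 1 was higher and 2 lower. Hdc, the histamine-synthesising enzyme of tuberomammillary neurons, had 29.6 FPKM in IP and 9.36 in input. The dopamine transporter Slc6a3 had 1.61 FPKM in IP and 18.0 in input.

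Of 18 GABA-A and glycine receptor subunits, 8 were higher and none lower. Gabrd, a subunit of extrasynaptic receptors, was furthest at 6.44 FPKM in IP and 2.62 in input. Of 17 ionotropic glutamate receptor subunits, 6 were higher and 1 lower. Grin1, the obligate NMDA receptor subunit, had 71.8 FPKM in IP and 34.5 in input, and Gria1 was the lower one at 39.0 FPKM in IP and 48.4 in input. Grin2c was listed but fell below the FPKM minimum, at 0.481 FPKM in IP and 0.875 in input. Of 32 metabotropic and amine receptors, 13 were higher and 4 lower. Both GABA-B subunits were among the higher, with Gabbr2 at 108 FPKM in IP and 58.0 in input. Grm3, which astrocytes express, was lowest at 8.13 FPKM in IP and 20.2 in input.

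Of 37 receptor genes for metabolic and peptide hormones, 14 were higher and 7 lower, with a median of 0.57. The share higher, 66.7% of those listed, was near the 59.6% of all members. Tacr3, the neurokinin B receptor, had 7.54 FPKM in IP and 3.54 in input. Glp1r, the target of incretin drugs, had 5.53 FPKM in IP and 3.07 in input. Calcr, the calcitonin receptor, had 6.34 FPKM in IP and 3.85 in input. Oprl1, the nociceptin receptor, had 26.6 FPKM in IP and 19.7 in input, a log2 fold of 0.44 that is close to the median member. The mu-opioid receptor Oprm1 had 29.2 FPKM in IP and 19.6 in input. The lower genes included Insr and Igf1r, the insulin and insulin-like growth factor receptors, with Insr at 5.62 FPKM in IP and 9.09 in input. Ghr, Adipor2 and the glucocorticoid receptor Nr3c1 were lower as well. Ramp1, a partner of calcitonin-family receptors, was furthest down at 0.859 FPKM in IP and 7.59 in input. Lepr, the leptin receptor, was listed but fell below the FPKM minimum, at 0.389 FPKM in IP and 0.751 in input, and Mc3r, Mc4r and Ghsr were not listed.

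Voltage-gated sodium and calcium channel genes were higher in 14 of 28 and lower in none, or 100% higher of those listed against 59.6% of all members. Cacna2d2, Cacnb1 and Scn1a led with log2 folds of 0.89, 0.83 and 0.81. Of 48 potassium and HCN channel genes, 20 were higher and 5 lower. The higher ones lay in a narrow range, up to 0.79 for Hcn3. The inward rectifiers Kcnj10 and Kcnj16, known from astrocytes, were far below, with Kcnj10 at 7.36 FPKM in IP and 78.2 in input. Of 8 glucose-sensing genes, 2 were higher and 2 lower. The higher ones encode the subunits of the ATP-sensitive potassium channel that couples glucose to firing. Abcc8 had 4.30 FPKM in IP and 2.04 in input, and Kcnj11 had 6.88 FPKM in IP and 4.93 in input. Ucp2, a mitochondrial carrier, and Sirt1, a deacetylase, were lower, with Sirt1 at 3.16 FPKM in IP and 4.89 in input.

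Synaptic genes were mostly higher. All 10 listed pan-neuronal markers of 14 were higher, with a median of 0.76, among them Uchl1, Rbfox3 and Stmn2 at 0.95, 0.75 and 0.72. Of 35 vesicle and release genes, 22 were higher and 2 lower, or 91.7% higher of those listed against 59.6% of all members. Snap25, a membrane fusion protein, had the highest immunoprecipitate level of all members, 10374 FPKM, against 5401 in input. Dnm1, Rab3b, Syn1 and Syp were higher by 1.05, 0.87, 0.78 and 0.77. The active-zone giants Pclo and Bsn were the 2 lower genes, with Pclo at 19.0 FPKM in IP and 39.99 in input. Of 32 synaptic adhesion genes, 19 were higher and 1 lower. Cbln2, a secreted synapse organiser, had 27.7 FPKM in IP and 7.78 in input, and Lrrtm1, Lrrtm3 and Nrxn3 were higher by 1.11, 0.97 and 0.95. Of 23 postsynaptic scaffold genes, 5 were higher and 1, Homer2, was lower. Dlg4, the scaffold PSD-95, had 380 FPKM in IP and 250 in input. Of 36 tubulin, filament and motor genes, 25 were higher and 3 lower. Prph, the intermediate filament peripherin, had 11.5 FPKM in IP and 3.59 in input, and the 3 lower genes were the motor heavy chains Kif5a, Kif5b and Dync1h1. Tuba1a and Tuba1b share a test, and tubulin copies are similar enough that their split is uncertain.

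**Figure D3:**
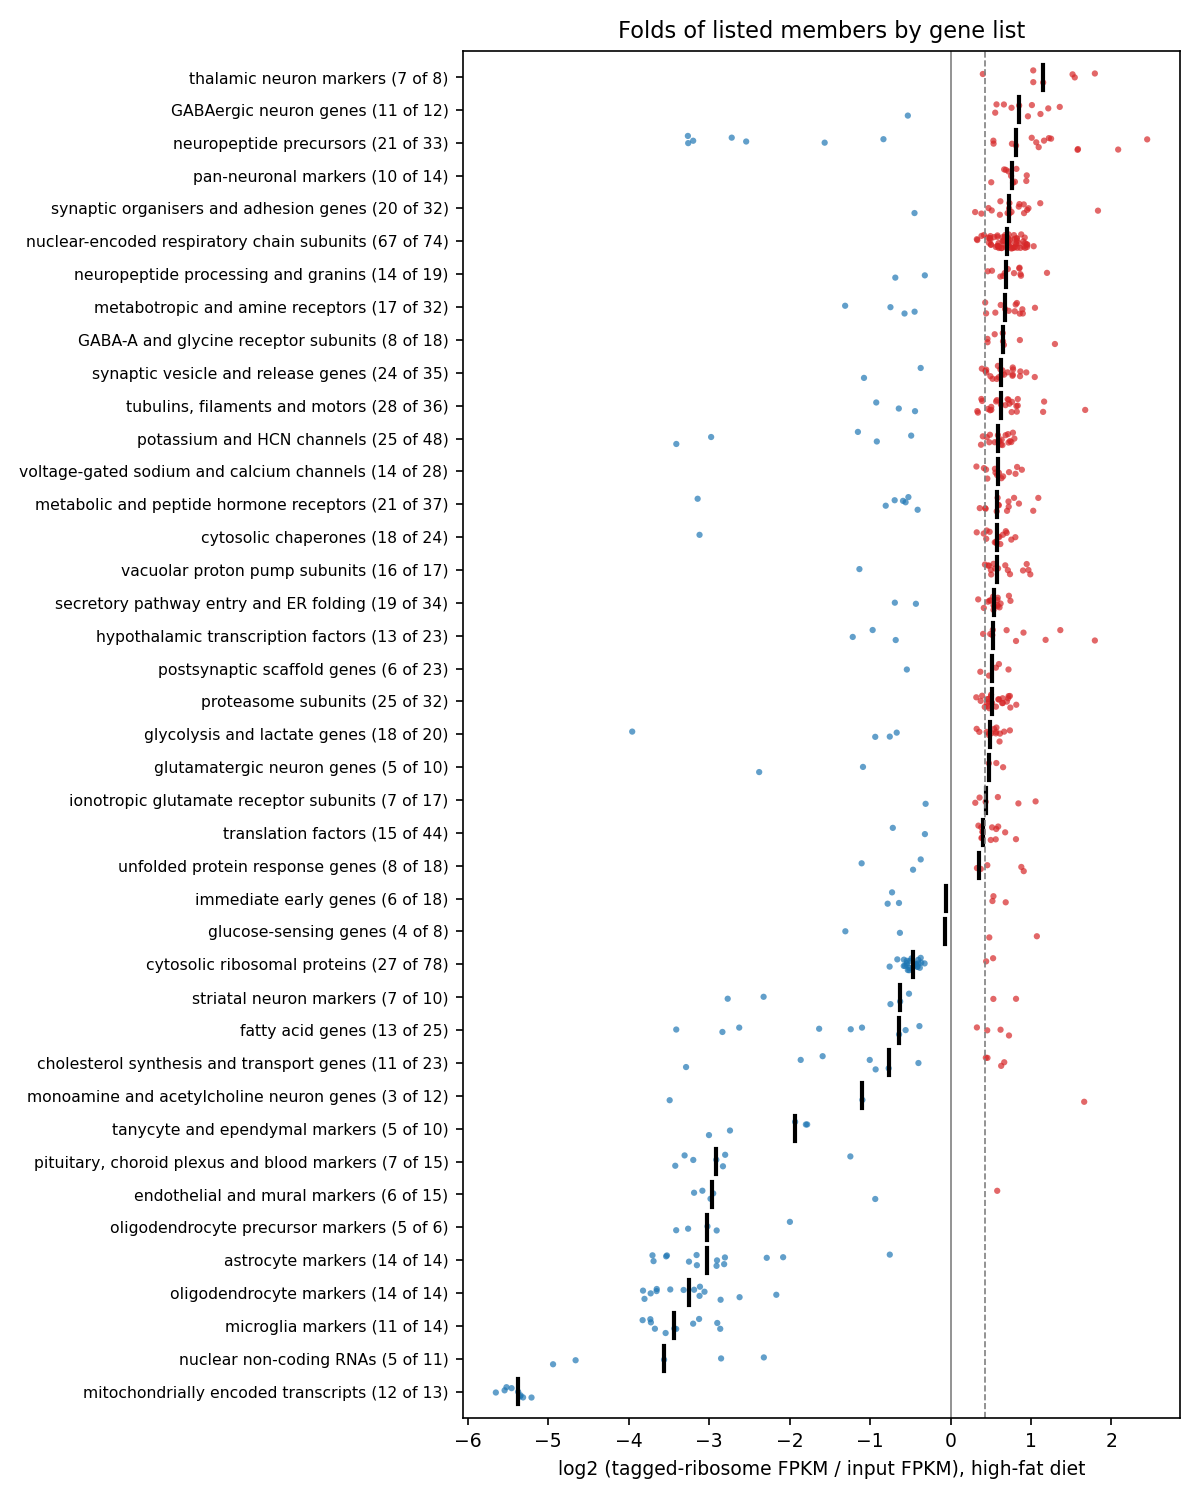
Log2 fold of immunoprecipitate over input for each listed member of each gene list with at least 3 tests, with the black bar at the list median, the solid line at 0 and the dashed line at the median of all members (0.42). Beside each name is the number of listed genes. Neuronal lists sit to the right in a narrow band, and glial, vascular, mitochondrially encoded and nuclear RNA lists lie to the left.

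Glial and vascular markers were low in the immunoprecipitate. Across the astrocyte, oligodendrocyte, precursor and microglial lists, 44 of 48 genes were members and all 44 were lower, with a median of -3.19 and levels of 7.05% to 59.2% of input. The 14 astrocyte markers had a median of 12.2% of input. The water channel gene Aqp4 had 1.94 FPKM in IP and 25.3 in input. The gap junction gene Gjb6 had 2.63 FPKM in IP and 30.5 in input. Aldoc, the one nearest to input, had 374 FPKM in IP and 631 in input. The 14 oligodendrocyte markers had a median of 10.5% of input. Mag, a myelin protein, had 4.41 FPKM in IP and 32.0 in input. Mbp, whose message travels into myelin, had 83.2 FPKM in IP and 693 in input. The 11 listed microglial markers of 14 had a median of 9.26% of input, with Csf1r at 0.537 FPKM in IP and 7.13 in input. None of the 44 was at 0, as the rule for members requires.

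Markers of the remaining cell types followed. Of 15 endothelial and mural markers, 5 were lower and 1, Itm2a, was higher, at 6.6 FPKM in IP and 4.41 in input. Of 10 tanycyte and ependymal markers, 5 were lower, with Ccdc153 at 0.646 FPKM in IP and 5.17 in input and the intermediate filament Vim at 1.78 FPKM in IP and 6.77 in input. Of 15 pituitary, choroid plexus and blood markers, 7 were lower, from Cga at 9.34 FPKM in IP and 22.1 in input to Prl at 22.7 FPKM in IP and 243 in input. The globin genes Hba-a1, Hbb-bs and Hbb-bt are near-identical to their neighbours, so their split is uncertain.

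The respiratory chain separated by genome. All 12 listed mitochondrially encoded genes of 13, in 9 tests, were lower, at 1.99% to 2.71% of input. mt-Co1, a subunit of cytochrome oxidase, had 182 FPKM in IP and 9155 in input. mt-Cytb, of complex III, had 101 FPKM in IP and 4428 in input. These messages are made and translated inside mitochondria, on ribosomes that do not carry L10a. Over the 9 tests the summed level was 546 FPKM in IP and 24182 in input, or 2.26%. That share is below the 7.05% of the lowest glial marker. Unprocessed pseudogenes of chromosome 1 that copy mitochondrial sequence, such as Gm28437, lay at similar shares (1.93% for Gm28437), and reads between them and the mitochondrial genes cannot be told apart.

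The nuclear-encoded partners of the same complexes were higher in 67 of 74 genes and lower in none, with a median of 0.71. The medians by complex were close to each other: 0.68 for 33 listed genes of complex I, 0.57 for 4 of complex II, 0.72 for 8 of complex III, 0.72 for 9 of complex IV and 0.72 for 13 of ATP synthase. Cox5a, of cytochrome oxidase, had 248 FPKM in IP and 121 in input. Atp5b, the catalytic subunit of ATP synthase, had 4385 FPKM in IP and 2631 in input. Sdha, of complex II, had the smallest fold, 0.33, which is under the median member.

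**Figure D4:**
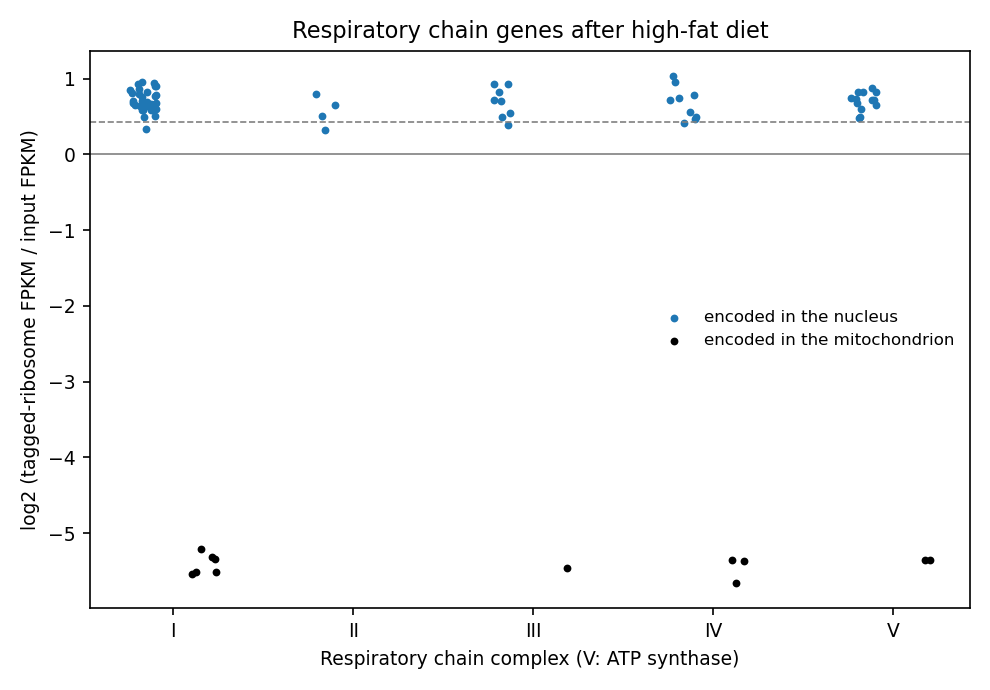
Log2 fold of immunoprecipitate over input after high-fat diet for listed respiratory chain genes of each complex, encoded in the nucleus (blue) or in the mitochondrion (black), with the dashed line at the median of all members (0.42). Nuclear-encoded subunits of every complex lie above 0, and mitochondrially encoded ones lie near -5.4.

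Ribosomal protein genes set cytosolic and mitochondrial ribosomes apart. Of 78 cytosolic ribosomal protein genes, 25 were lower and 2 higher, with a median of -0.47 (72.4% of input). The lower ones lay between Rpl30, at 127 FPKM in IP and 159 in input, and Rps12, at 23.2 FPKM in IP and 39.3 in input. Rpl27 and Fau were the higher pair, and 51 genes were not members. Many of these genes have processed pseudogenes that can share reads, so single values are uncertain. Of 78 mitochondrial ribosomal protein genes in the annotation, a set chosen after its values were seen, 49 were members with a test of their own and all 49 were higher, with a median of 0.63. Mrpl22 was furthest, at 24.9 FPKM in IP and 12.6 in input.

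Of 44 translation factors, 13 were higher and 2 lower, with a median of 0.40 that turns to -0.024 once all folds are centred on the median member. Eef1a2, the elongation factor of neurons and muscle, had 153 FPKM in IP and 87.2 in input. Pabpc1, the poly(A)-binding protein, had 133 FPKM in IP and 218 in input. Of 34 secretory-entry and endoplasmic reticulum folding genes, 17 were higher and 2 lower. Of 18 unfolded protein response genes, 5 were higher and 3 lower, with a median of 0.35 that turns to -0.071 when centred. Creld2 and Chac1 were higher by 0.91 and 0.88, and Dnajc3, an endoplasmic reticulum co-chaperone, had 9.98 FPKM in IP and 12.9 in input. Proteasome subunits were higher in 25 of 32 and lower in none, vacuolar proton pump subunits higher in 15 of 17 and lower in 1, and cytosolic chaperones higher in 17 of 24. The lower chaperone was Cryab, a small heat-shock protein of oligodendrocytes, at 23.6 FPKM in IP and 205 in input. Atp6v1a, a catalytic subunit of the proton pump, had 1782 FPKM in IP and 897 in input.

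Among fuel metabolism genes, glycolysis lay near the median member and lipid handling was mostly lower. Of 20 glycolysis and lactate genes, 14 were higher and 4 lower, with a median of 0.49, or 0.070 once centred on the median member. Tpi1, Eno2, Pkm and Aldoa were higher by 0.74, 0.67, 0.61 and 0.61, and the neuronal glucose transporter Slc2a3 was at 28.8 FPKM in IP and 22.5 in input, below the median member. Lower were Slc16a1 and Slc2a1, transporters of vessels and glia, the astrocyte isozyme Aldoc, and Gapdh. Gapdh had 3.02 FPKM in IP and 46.9 in input, but its deposited locus spanned 21.2 kb against 4.75 kb annotated, so its value may not be that of the gene alone. Of 25 fatty acid genes, 4 were higher and 9 lower, with a median of -0.64. Fabp7, a fatty acid carrier of astrocytes, had 6.16 FPKM in IP and 65.5 in input. The desaturase gene Scd1 had 7.43 FPKM in IP and 53.0 in input. Cpt1a, the gate of mitochondrial fat oxidation, had 0.950 FPKM in IP and 5.87 in input. Cpt1c, the brain isoform, and Fabp3 were higher. Of 23 cholesterol genes, 4 were higher and 7 lower. Apoe, made mainly by astrocytes, had 21.9 FPKM in IP and 213 in input. Cyp46a1, the neuronal cholesterol hydroxylase, had 18.4 FPKM in IP and 11.6 in input. The astrocyte list's low level moved with these lower genes, and its part in them was not tested. Fth1, the ferritin heavy chain, was the lower gene with the highest immunoprecipitate level, at 737 FPKM against 2607 in input.

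Of 18 immediate early genes, which neurons switch on with activity, 3 were higher and 3 lower, or 50% higher of those listed against 59.6% of all members. Fos had 3.34 FPKM in IP and 2.31 in input. Egr1, another transcription factor, had 25.8 FPKM in IP and 18.0 in input. Arc, a synaptic plasticity protein, had 3.57 FPKM in IP and 5.92 in input. Of 12 inflammation genes, 1 was a member, the macrophage gene Cd68, which was lower at 1.24 FPKM in IP and 4.07 in input.

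Nuclear non-coding RNAs had the lowest median of the nuclear-encoded lists, with 5 of 11 genes lower, none higher and a median of -3.56. Malat1, retained in nuclear speckles, had 86.7 FPKM in IP and 2662 in input, or 3.26% of input. Gm37376, an unverified annotation that has Malat1's deposited coordinates (chromosome 19, 5795690 to 5802672), had 568 FPKM in IP and 12662 in input, and the 2 overlap, so they are not independent. Neat1, the scaffold of paraspeckles, stood at 3.96% of input. Bc1, a cytoplasmic RNA of dendrites that is not translated, stood at 3.62%, with 4.15 FPKM in IP and 115 in input. Of 96 members annotated as long intergenic RNAs, 20 were higher, with a median of -1.25, against 61.2% higher and a median of 0.43 for 5235 protein-coding members. The exception in level was 6330403K07Rik, annotated as long intergenic, at 1476 FPKM in IP and 956 in input. Processed pseudogenes were higher in 115 of 147, with a median of 0.73. They copy mature messages, and reads of the parent gene cannot be told apart from theirs.

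Fold fell with annotated transcript length. Among 5232 protein-coding members with a transcript in the annotation, 73.2% of those under 1 kb were higher, 66.6% of those of 2 to 3 kb, 52.0% of those of 4 to 6 kb and 33.9% of those over 6 kb. The medians were 0.61, 0.46, 0.33 and -0.57 in those classes. Spearman's rho was -0.25 over the 5232 members, which share the same libraries and length normalisation, and -0.13 with coding length in place of transcript length. Leaving out the glial lists took the class over 6 kb only from 598 to 595 genes, so its median of -0.57 could hardly move. At 5 FPKM or more that class had 43.1% higher and a median of -0.45. Both subsets were chosen after the data were seen. Within the neuronal lists the 142 higher genes had a median transcript of 3.59 kb and the 18 lower genes 4.81 kb, with rho of -0.28 over 160 genes. By coding length the order was the other way, with a median of 1.76 kb for the higher and 1.38 kb for the lower genes, and the 18 include Kcnj10, Kcnj16 and Grm3, which astrocytes express. Pclo, at 20.1 kb, Dync1h1, at 14.3 kb, and Kif5a, at 6.30 kb, were among the lower. Long transcripts were not uniformly lower: Cntnap2, at 9.83 kb, had 71.3 FPKM in IP and 37.9 in input. Scn1a, at 8.39 kb, had 57.0 FPKM in IP and 32.6 in input. Nrxn3, at 7.92 kb, had 223 FPKM in IP and 115 in input. RNA integrity per library is not given in the sources used here, and its part in the length trend was not tested.

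**Figure D5:**
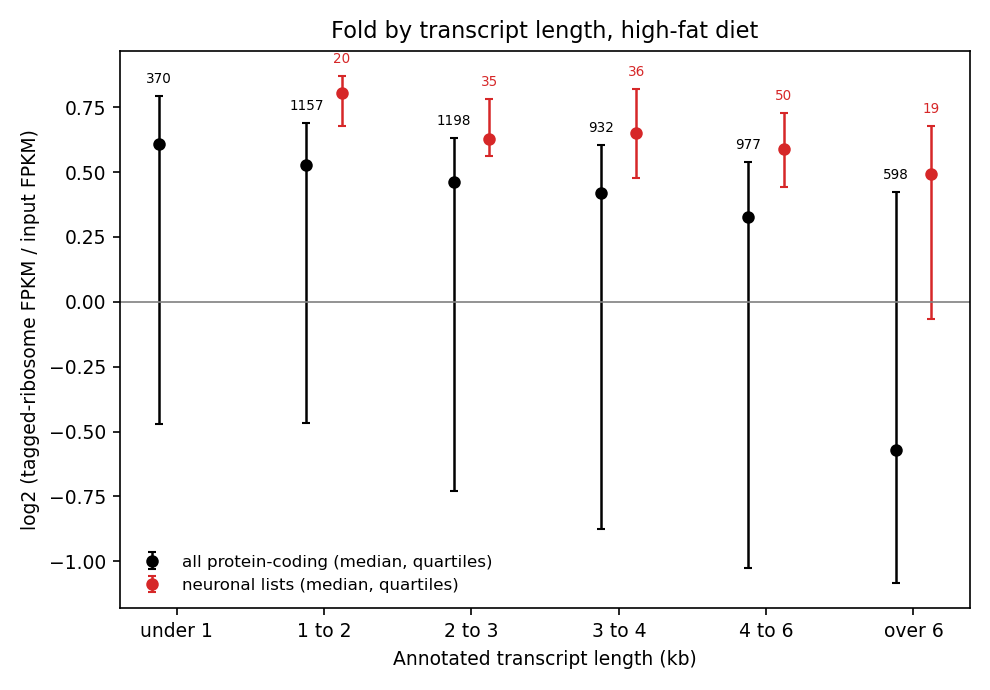
Median log2 fold of immunoprecipitate over input (points) with quartiles (bars) by annotated transcript length, for all protein-coding members (black) and members of the neuronal lists (red), with the number of genes above each bar. The black medians fall with length to below 0 over 6 kb, and the red median over 6 kb is above 0.

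The direction also went with the level in input. In the lowest of 5 equal classes of members by input FPKM, from 0.291 to 3.51 FPKM, 32.5% were higher, and in the highest class, from 42.4 FPKM up, 79.8% were. A member with less than 1 FPKM in input is higher by the FPKM minimum itself. Among 186 Gene Ontology terms of the deposited annotation with at least 40 members, the lowest medians belonged to collagen-containing extracellular matrix (-1.61, 10 of 54 members higher), innate immune response (-1.18, 15 of 47), basolateral plasma membrane (-1.04, 19 of 44) and angiogenesis (-0.99, 14 of 43). The highest belonged to respiratory chain (0.67, 41 of 46) and postsynaptic membrane (0.59, 48 of 60). Over 20 nuclear chromosomes the share of members higher ranged from 48.8% to 67.4%.

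The enrichment was set against that in chow-fed mice to ask whether it differed after 3 days of high-fat diet. Being a ratio, it moves with the input as well as with the immunoprecipitate. A two-sided z-test was run on the 5149 tests that passed the FPKM rule and had a test statistic in both diets. Adjusted by the Benjamini-Hochberg method, it called no difference (0% called), and 1 test had an unadjusted p below 0.05. Since these tests were called in both tables, their agreement in sign is in part fixed by that choice. Of their folds, 86.9% differed by less than 0.25 on the log2 scale between diets and 19 by over 1, and the median absolute difference was 0.091. The standard error of a difference, taken from the statistics of the authors' deposited tables, had a median of 0.43, so a typical gene would have needed a difference of 0.85 to reach an unadjusted p of 0.05, and smaller diet effects were not detectable. That error is wide beside the differences seen, so the test could call very little, and its count of 0 does not show that the diets acted alike. The gene under that level was Rdh13, a retinol dehydrogenase, with a difference of -0.96 on the log2 scale and a standard error of 0.42. It missed the adjusted threshold. Rdh13 stood at 6.04 FPKM in the high-fat immunoprecipitate and 6.26 in the chow one. Its input was at 17.8 FPKM after high-fat diet and 9.45 on chow, so the difference lay mostly in input. Pnoc's fold was 2.18 after high-fat diet and 2.11 on chow, a difference of 0.07 with a standard error of 0.44. Gnrh1's was 2.44 after high-fat diet and 2.81 on chow, and Pmch's was 2.08 after high-fat diet and 2.23 on chow. The input itself was not compared by a test, and its pituitary and choroid plexus markers stood at unlike levels, with Cga at 22.1 FPKM in high-fat input and 72.6 in chow input, and Ttr at 8.89 FPKM in high-fat input and 54.7 in chow input. Of the 5966 members, 5172 were also listed on chow, and the other 794 had a median absolute log2 fold of 0.49. Of the 6105 members of the chow comparison, 920 were not listed after high-fat diet. Being listed depends on the q-value threshold in each diet, so these counts do not measure a difference between diets.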

How the data were processed

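RNA from frozen hypothalamus was amplified with the Ovation RNASeq System V2, using poly(T) and random primers, and made into Nextera XT libraries, per the labels' protocols. The submitters' processing notes name HISAT2 2.1.0, StringTie 1.3.4d, Cufflinks 2.2.1, Cuffdiff and build GRCm38.p6. The authors deposited, per diet, the entries called significant, with 1 FPKM per group, a log2 fold, a test statistic (a score), a p-value and a q-value. Values per library were not used here, so no model could be refitted.

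Entries that repeat a gene, locus and values were merged. The log2 fold was recomputed as IP FPKM over input FPKM (within 1.24e-05 of the deposited log2 values), and lists were described by counts and medians. The diet difference used a standard error of fold over statistic and was adjusted over 5149 tests. It was run on data simulated with those same standard errors, which cannot show whether the errors have the right size. Where libraries did not come from separate animals, p-values measure only the spread between libraries. Members, lists and named genes were chosen with earlier results of these data known: named were list members and the 15 highest or lowest by fold or level. Transcript lengths came from GENCODE M21. Promoters came from RefSeq (GRCm38.p6) without chromosome 18, matching 4188 of 5626 members by symbol. Strand was not given. Some genes are not reported here. Python 3.11.15, pandas 2.3.3, NumPy 2.4.6, SciPy 1.17.1 and matplotlib 3.10.9 were used.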

Additional observations from a re-analysis of the deposited data

How the results depend on the processing

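The alternatives were a 5 FPKM minimum, no minimum, centring on the median member, log2(FPKM + 1), a q threshold of 0.01, tests with 1 identifier, every entry kept, protein-coding genes only and a 1.5-fold threshold. With 5 FPKM, 4560 tests entered. Lower members numbered 1343 against 2412, and 639 against 1394 of them reached 2-fold, while higher members numbered 3217 against 3554. The minimum thus removed mostly lower members, and the share of members higher depends on it. At least 2-fold higher were 33 members after centring and 92 with log2(FPKM + 1), against 1813 at 1.5-fold. Of the list medians, that of glutamatergic genes turned to -0.31 with no minimum, and those of translation factors and the unfolded protein response to -0.024 and -0.071 when centred. With 5 FPKM, an alternative chosen after seeing the data, those of striatal markers and immediate early genes turned to 0.0080 and 0.52. The cause was not tested. Centring also turned Rgmb to -0.13, Sdha to -0.096 and Slc2a3 to -0.065. At a q of 0.01, 16 named genes were no longer called: Bsn, Cpe, Dnajc3, Egln1, Fabp3, Fos, Gabbr2, Gm19744, Gria1, Homer2, Kcnj11, Nr3c1, Rgmb, Rpl30, Sdha and Slc2a3. The diet difference (z-test) had 0 adjusted calls in each alternative run, and 2 unadjusted ones, against 1, with standard errors taken from the deposited p-values. No paired analysis was possible because values per library were not used here, and leaving out libraries and the fit with the replicate number as a block were not run for that reason.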

Other observations

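The largest excess of IP over input among tests with 1 identifier was that of Snap25, 4972 FPKM, followed by that of Vsnl1, a calcium sensor of neurons, at 3583 FPKM in IP and 1682 in input. The calmodulin gene Calm2 had 3964 FPKM in IP and 2333 in input. Gnas, the stimulatory G protein subunit, had 2473 FPKM in IP and 1372 in input. Of the 10 largest the others, besides Atp5b, Pmch and Atp6v1a given above, were those of Sod1, superoxide dismutase, at 1741 FPKM in IP and 998 in input, and of Rtn1 and Clip3.

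Among the 15 highest folds at 5 FPKM or more and outside the lists was Crabp1, a retinoic acid binding protein, at 39.4 FPKM in IP and 12.7 in input. The histone gene Hist1h4f was also among them, at 5.06 FPKM in IP and 1.76 in input, and has near-identical copies, so its level is uncertain. Among the most abundant lower genes outside the lists was Ndrg2, known from astrocytes, at 302 FPKM in IP and 1324 in input.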
